A study of Drosophila melanogaster with 9 samples.

Results

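The genes described are the receptors, ligands and surface proteins that steer axons and match neuronal partners in *Drosophila*: the Slit, Netrin, Semaphorin and Ephrin systems, the Dscam proteins, the teneurins, the receptor tyrosine phosphatases, the Ryk-type kinases, 2 leucine-rich repeat proteins and the irre cell recognition module (IRM). A list of 40 gene symbols was matched exactly to the symbols in the authors' 3 comparison tables. Of these, 39 were found in all 3 tables, which hold 12668, 12750 and 12157 features for T0 against FACS, T3 against FACS and T3 against T0. The symbol *conn* was not analysed here.

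Tumors were induced by *NΔecd*, a form of Notch that lacks most of its extracellular part and is always active. It was expressed together with GFP in random clones of the larval central nervous system by the actin flip-out system, so that the transgene was not restricted to neural stem cells (NSCs). N-FACS are GFP-positive cells sorted from 150 larval brains per replicate, 4 days after clone induction. N-T0 are the tumor masses that grew for 8 to 10 days in adult *w1118* hosts, and N-T3 are the fourth serial allografts, taken 6 to 8 days after transplantation, from 25 hosts per replicate at each stage. Each stage has 3 libraries, all 9 carry *NΔecd*, and no stage without it was compared here. The allograft masses were pooled over hosts, and the labels name no sorting of them, so that allografting, host tissue and the absence of sorting cannot be told apart in the comparisons with N-FACS.

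Growing axons read their path through receptors that respond to secreted or membrane-bound cues. Slit from midline cells repels axons through the Robo receptors, and Netrins attract them through Frazzled or repel them through Unc-5. Semaphorins signal through plexins, while Dscams, teneurins and the IRM proteins act by binding in pairs between neighboring membranes. Many of these proteins have further roles outside the nervous system, for example in muscle, trachea or nephrocytes. RNA levels of these genes in a tumor do not measure wiring as such.

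The tables give comparison values and no value per library, so that the depth and the spread of single libraries are unknown here. The mean of each group was therefore solved from the authors' base mean (the average normalized count of a comparison) and their log2 fold change, and is called an implied mean. Its precision is carried by the standard error (SE) of the log2 fold change. Genes were called by the criterion of the study, an absolute log2 fold change of 0.5 or more with an adjusted p of 0.05 or less in the authors' DESeq2 Wald test. Positive log2 fold changes mean higher in the stage named first.

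In the allografts a large part of the guidance genes was lower and none was called higher. In T0 against FACS, 20 of the 39 genes (51.3%) were called lower, where 16.2% of the 12167 features tested were lower, and 0 were called higher, where 15.3% of the features were. In T3 against FACS, 22 (56.4%) were called lower, beside 18.2% of 12501 features, and 0 higher, beside 17.2%. The shares over all features include many with few counts. A base mean of 30 or more was reached by all 39 genes at T0 and 38 at T3. Of all features, 8092 of 12668 and 8035 of 12750 reached it, and the share called among these was not computed. By unadjusted p under 0.05, 2 genes stood above N-FACS at T0 and 3 at T3, and the share of all features was not computed. The median log2 fold change of the 39 genes was -0.57 at T0 and -0.76 at T3, against 0.01 and 0.0032 over all features tested. A test of whether the change exceeded 0.5 in size, computed from the same estimates and SEs, called 14 genes lower at T0 and 18 at T3, where it called 8.69% and 10.7% of the features lower, and it called 0 higher at either stage. By that test the calls of *sli*, *unc-5*, *Ten-m*, *NetA*, *Ptp99A* and *Ten-a* were lost at T0 and those of *rst*, *Ptp99A*, *Eph* and *Lar* at T3.

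**Figure D1:**
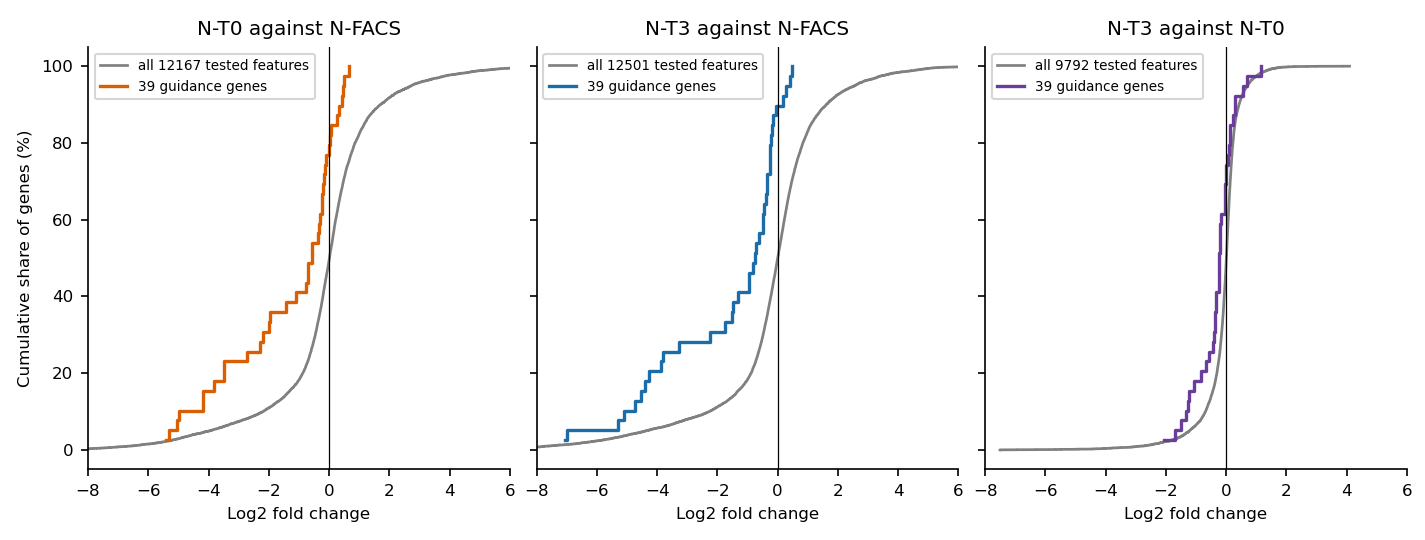
Cumulative share of genes (y axis, percent) by log2 fold change (x axis) for the 39 guidance genes (colored steps) and for all tested features (gray line), with 1 panel for each comparison. In both comparisons with N-FACS the guidance genes lie to the left of the gray line, with medians of -0.57 and -0.76, and in T3 against T0 their median is -0.24.

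The 2 comparisons with N-FACS share the N-FACS libraries, so the values of the allograft stages are given side by side and not as independent evidence. At both stages 19 genes were called lower. The share of all features called lower at both stages was not computed, so this overlap cannot be set against it. *Ten-a* was called lower at T0 alone, and *Eph*, *Lar* and *rst* at T3 alone, while 16 genes were called at neither stage. That a gene was called at a single stage is not a test of the difference between stages, which is given by T3 against T0 further on.

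Markers of several cell types moved in the same comparisons. All 8 neuronal markers, among them *elav* and *brp*, were called lower at both stages, and their summed implied mean was 13910 normalized counts in N-FACS, 889 in N-T0 and 1063 in N-T3. A large part of the allograft sums was *elav*, at 440 normalized counts in N-T0 and 585 in N-T3. In T3 against T0, 6 of the 8 had a log2 fold change below 0 and 2 above it. The synaptic gene *brp* averaged 1583 normalized counts in N-FACS, 18.3 in N-T0 and 7.46 in N-T3. Of 8 glial markers 6 were called lower at both stages, with *repo* at 540 normalized counts in N-FACS, 4.07 in N-T0 and under 3 in N-T3, although *Eaat1* was called higher and carried the glial sum to 26068 normalized counts in N-T0 and 18547 in N-T3, against 11702 in N-FACS. None of the 8 NSC markers was called higher at T0 or T3, and 2 were called lower in each comparison, with *ase* at -2.95 at T0 and -4.04 at T3. Their sum, most of it *mira*, was 77834 normalized counts in N-FACS, 87216 in N-T0 and 93948 in N-T3. Of 8 hemocyte markers 7 were called higher at both stages, and the sum of the 8 was 1276 normalized counts in N-FACS, 6421 in N-T0 and 4464 in N-T3. *Ppn* made up most of the allograft sums, at 3455 normalized counts in N-T0 and 2538 in N-T3. Of 6 fat body markers matched, of 8 listed, 4 were called higher at each stage, though not the same 4. The yolk protein gene *Yp1*, called higher at both stages, averaged 10.1 normalized counts in N-FACS, 442 in N-T0 and 95.7 in N-T3. The sum of the 6, most of it *FASN1*, was 9115 normalized counts in N-FACS, 15613 in N-T0 and 14883 in N-T3. Of 6 tracheal markers 2 were called higher and 1, *trh*, lower at both stages. Their sum was 192 normalized counts in N-FACS, 684 in N-T0 and 456 in N-T3. Most of it in the allografts was *Gasp*, at 562 normalized counts in N-T0 and 351 in N-T3. In bulk RNA, fewer cells of a type and less RNA per cell cannot be told apart, and the part of each cell type in the changes of the guidance genes was not tested.

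**Figure D2:**
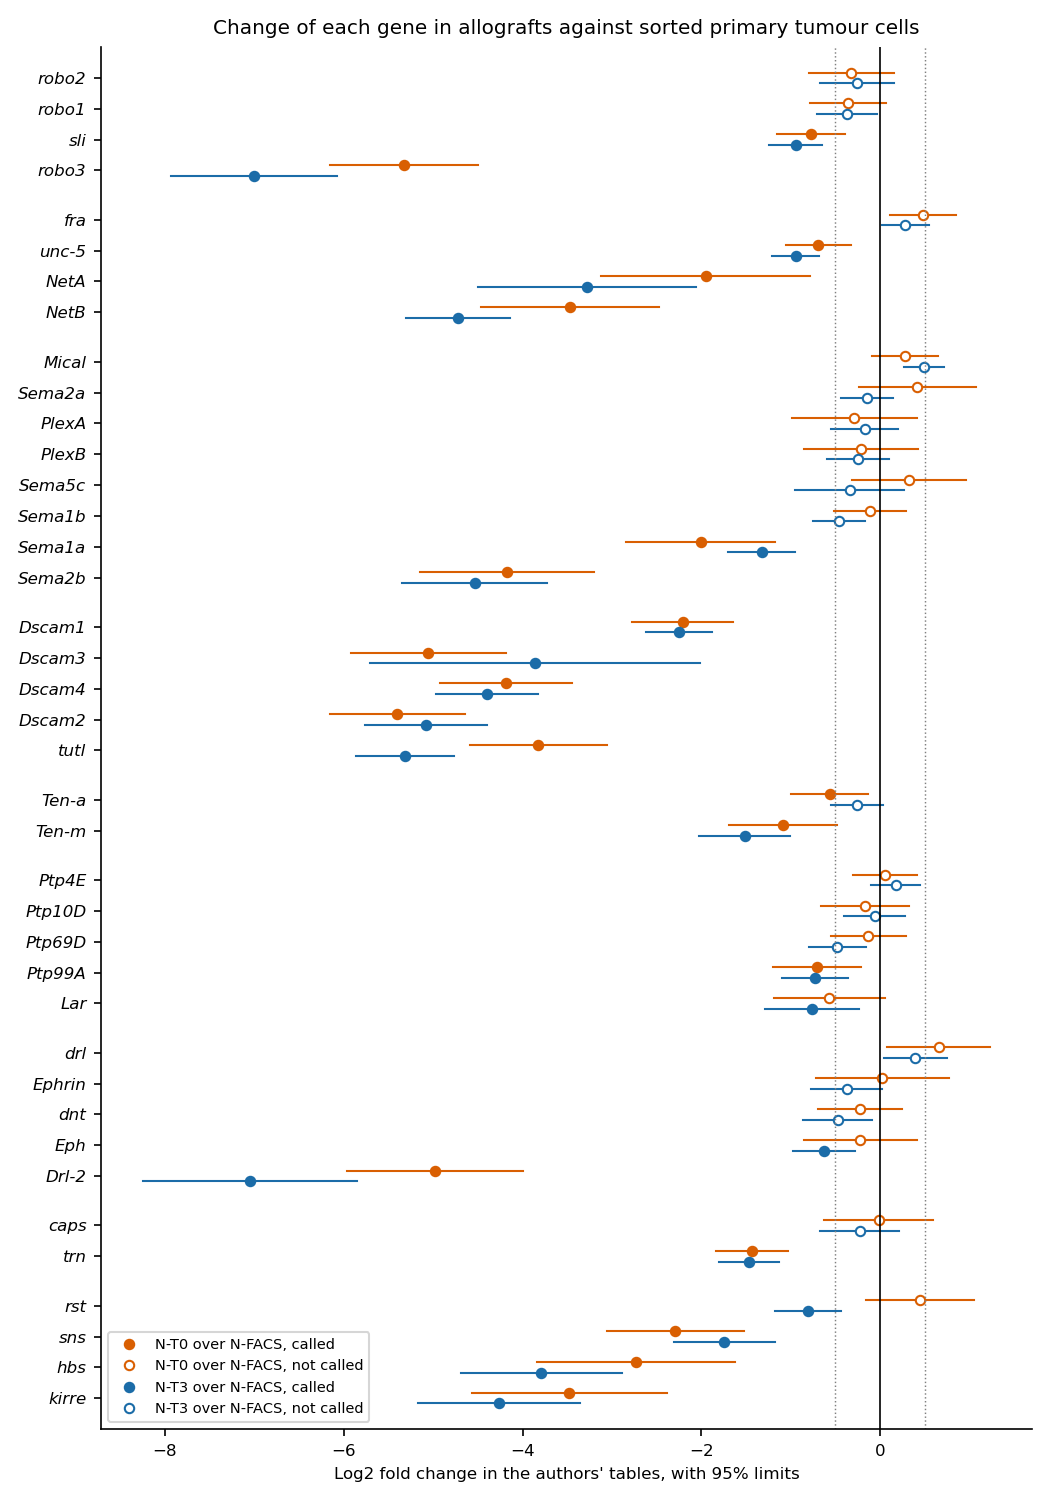
Log2 fold change (x axis) of each guidance gene (y axis, grouped by role) in N-T0 over N-FACS (orange) and N-T3 over N-FACS (blue). Points are the authors' estimates, bars are 95% limits, filled points were called, and dotted lines mark 0.5 in either direction. The lowest points are *Drl-2* and *robo3* at T3, at -7.05 and -7.00, and no filled point lies to the right of 0.

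Within the Slit and Robo system the ligand and 1 of 3 receptors were called lower. The receptor *robo3*, which sets the lateral position of longitudinal axons in the fly nerve cord, averaged 660 normalized counts in N-FACS, 16.5 in N-T0 and 5.27 in N-T3. This was a log2 fold change of -5.32 (SE 0.42, adjusted p = 6.3e-34) at T0 and -7.00 (SE 0.47, adjusted p = 3.04e-47) at T3, or 2.50% and 0.780% of the N-FACS level. *robo3* lies on chromosome 2L at 1256417 to 1296596 on the plus strand. Its paralogs, which bind the same ligand, were not called. *robo1*, the receptor that keeps axons from crossing the midline again, averaged 1436 normalized counts in N-FACS, 1121 in N-T0 and 1140 in N-T3, with log2 fold changes of -0.36 (95% limits -0.78 to 0.07) and -0.37 (95% limits -0.70 to -0.03, adjusted p = 0.0694). *robo2*, which like *robo3* acts in lateral positioning, averaged 604 normalized counts in N-FACS, 484 in N-T0 and 518 in N-T3. Of the exonic bases of *robo2*, 41.0% overlap an antisense RNA on the other strand, and whether the counting used strand is not given in the sources used here. The intervals of *robo1* and *robo2* lay wholly above the upper limits of *robo3*, which were -4.49 at T0 and -6.07 at T3. The ligand *sli* averaged 5828 normalized counts in N-FACS, 3411 in N-T0 and 3096 in N-T3, and was called lower at both stages (log2 fold change -0.77, SE 0.19, adjusted p = 0.000385 at T0, and -0.95, SE 0.15, adjusted p = 5.67e-09 at T3).

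In the Netrin system both ligands were lower while the attractive receptor was not. *NetB* averaged 922 normalized counts in N-FACS, 83.2 in N-T0 and 35.7 in N-T3, with log2 fold changes of -3.47 (SE 0.51, adjusted p = 1.67e-10) and -4.73 (SE 0.30, adjusted p = 6.9e-55). *NetA* was the scarcest of the 39 genes in N-FACS, at 50.4 normalized counts, and averaged 13.0 in N-T0 and 5.29 in N-T3 (log2 fold change -1.95, SE 0.60, adjusted p = 0.00504, and -3.28, SE 0.62, adjusted p = 8.27e-07). The Netrin genes are neighbors on chromosome X, *NetA* at 14604012 to 14653928 and *NetB* at 14686038 to 14749376, both on the minus strand. *unc-5*, the receptor for repulsion, averaged 3173 normalized counts in N-FACS, 1964 in N-T0 and 1691 in N-T3 and was called lower at both stages, by a log2 fold change of -0.69 (SE 0.19) and -0.94 (SE 0.13). *fra*, the fly DCC receptor for attraction, averaged 4080 normalized counts in N-FACS, 5698 in N-T0 and 5084 in N-T3. Its log2 fold change of 0.48 (SE 0.19, adjusted p = 0.0364) at T0 passed the adjusted p and fell just short of the size of 0.5, and at T3 it was 0.28 (SE 0.13, adjusted p = 0.0745).

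**Figure D3:**
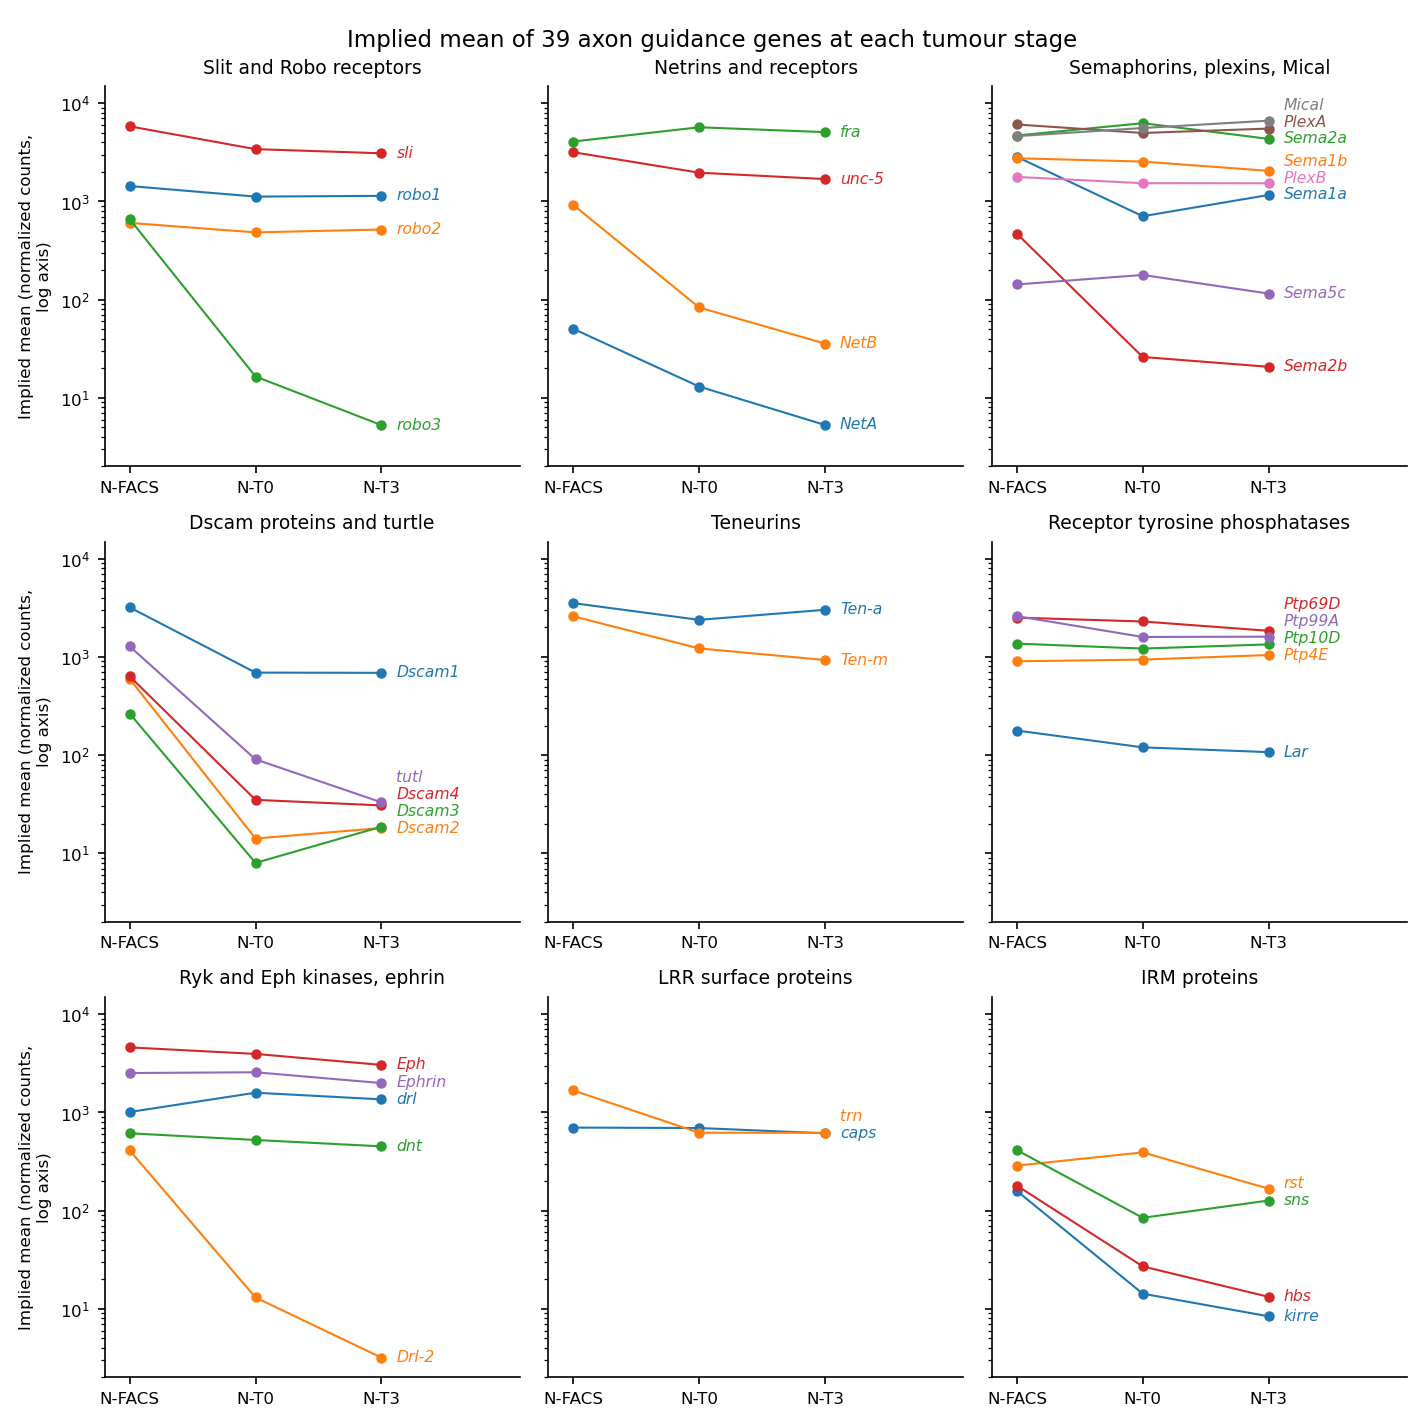
Implied mean (y axis, normalized counts on a log axis) of the 39 genes at the 3 tumor stages (x axis), with 1 panel for each group of roles and 1 line for each gene. No error is drawn, since the tables give none for a group mean. Lines that drop steeply, such as *robo3*, *NetB*, *Sema2b* and *Drl-2*, share panels with far less steep ones, such as *robo1*, *fra*, *PlexA* and *dnt*.

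Of the 8 genes of the Semaphorin system, 2 ligands were called lower at both stages. The secreted ligand *Sema2b* averaged 469 normalized counts in N-FACS, 26.0 in N-T0 and 20.7 in N-T3 (log2 fold change -4.17, SE 0.50, adjusted p = 1.44e-15, and -4.54, SE 0.41, adjusted p = 2.13e-26). Its close relative *Sema2a*, also secreted, averaged 4697 normalized counts in N-FACS, 6273 in N-T0 and 4341 in N-T3 and was not called, with 95% limits of -0.24 to 1.07 at T0 and -0.44 to 0.14 at T3. *Sema1a*, a transmembrane Semaphorin that can act as ligand and as receptor, averaged 2847 normalized counts in N-FACS, 707 in N-T0 and 1164 in N-T3 (log2 fold change -2.01, SE 0.42, adjusted p = 1.93e-05, and -1.32, SE 0.19, adjusted p = 4.56e-11). The other transmembrane members were not called: *Sema1b* stood at -0.11 (SE 0.21) and -0.46 (SE 0.15, adjusted p = 0.0057, short of the size), and *Sema5c* at 0.32 (SE 0.33) and -0.34 (SE 0.31).

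The Semaphorin receptors and their effector were not called in any comparison. *PlexA*, the receptor of the transmembrane Semaphorins, had the highest implied mean of all 39 genes in N-FACS and averaged 6083 normalized counts there, 4985 in N-T0 and 5524 in N-T3, with 95% limits on the log2 fold change of -0.99 to 0.42 at T0 and -0.55 to 0.20 at T3. *PlexB*, the receptor of the secreted ones, averaged 1778 normalized counts in N-FACS, 1534 in N-T0 and 1532 in N-T3, with limits of -0.85 to 0.43 and -0.59 to 0.10. *Mical*, the redox enzyme that binds PlexA and disassembles actin filaments, averaged 4626 normalized counts in N-FACS, 5599 in N-T0 and 6651 in N-T3. At T3 its log2 fold change of 0.49 (SE 0.12, adjusted p = 8.87e-05) passed the adjusted p and missed the size of 0.5.

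The Dscam proteins and turtle, immunoglobulin proteins of dendrite self-avoidance and axonal tiling, were the only group in which every member was called lower at both stages. Their median log2 fold change was -4.18 at T0 and -4.40 at T3. *Dscam1*, which is spliced into a great many isoforms that allow a neurite to recognize itself, averaged 3202 normalized counts in N-FACS, 693 in N-T0 and 689 in N-T3. Its log2 fold change was -2.21 (SE 0.29, adjusted p = 6.45e-13) at T0 and -2.25 (SE 0.19, adjusted p = 1.72e-30) at T3, the smallest of the 5, and the tables give no value per isoform. *Dscam2*, a tiling factor of the visual system, averaged 598 normalized counts in N-FACS, 14.1 in N-T0 and 18.1 in N-T3 (log2 fold change -5.40, SE 0.38, and -5.08, SE 0.35). It had the lowest log2 fold change of all 39 genes at T0, at 2.36% of the N-FACS level. *Dscam4* averaged 635 normalized counts in N-FACS, 35.0 in N-T0 and 30.8 in N-T3, and *Dscam3* averaged 265 in N-FACS, 7.98 in N-T0 and 18.7 in N-T3. The value of *Dscam3* at T3 was the least certain of the set, with a log2 fold change of -3.86, an SE of 0.94 and 95% limits of -5.71 to -2.02. *tutl*, turtle, averaged 1282 normalized counts in N-FACS, 90.6 in N-T0 and 33.1 in N-T3, with log2 fold changes of -3.82 (SE 0.39, adjusted p = 1.23e-20) and -5.31 (SE 0.28, adjusted p = 2.28e-77). The last was the smallest adjusted p of the 39 genes.

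The teneurins are large transmembrane proteins that match synaptic partners in the fly olfactory system and at the neuromuscular junction. *Ten-m* averaged 2596 normalized counts in N-FACS, 1222 in N-T0 and 931 in N-T3 and was called lower at both stages (log2 fold change -1.09, SE 0.31, adjusted p = 0.00225, and -1.51, SE 0.26, adjusted p = 3.64e-08). *Ten-a* averaged 3535 normalized counts in N-FACS, 2387 in N-T0 and 3023 in N-T3. It was called lower at T0 (-0.57, SE 0.22, adjusted p = 0.0343) and not at T3 (-0.26, SE 0.15, adjusted p = 0.149), and T3 against T0 was 0.31 with 95% limits of -0.15 to 0.76.

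The receptor tyrosine phosphatases act in the growth cone, and their log2 fold changes lay between -0.76 and 0.18 at the 2 stages. *Ptp99A* was called lower at both stages and averaged 2604 normalized counts in N-FACS, 1598 in N-T0 and 1609 in N-T3 (log2 fold change -0.70, SE 0.25, adjusted p = 0.0195, and -0.73, SE 0.19, adjusted p = 0.000355). Of its exonic bases 17.2% overlap *CG2321* on the other strand. *Lar*, which guides motor and photoreceptor axons, averaged 178 normalized counts in N-FACS, 120 in N-T0 and 107 in N-T3 and was called lower at T3 (-0.76, SE 0.27, adjusted p = 0.0125) but not at T0 (-0.57, SE 0.32, adjusted p = 0.163). Of its exonic bases 83.6% also belong to *CG46244* on the same strand in the annotation used here, so that its counts are uncertain. *Ptp4E*, *Ptp10D* and *Ptp69D* were not called. *Ptp4E* averaged 903 normalized counts in N-FACS, 940 in N-T0 and 1046 in N-T3, and *Ptp10D* averaged 1367 in N-FACS, 1217 in N-T0 and 1344 in N-T3. *Ptp4E* and its close paralog *Ptp10D* had log2 fold changes between -0.17 and 0.18, and *Ptp69D* stood at -0.13 (SE 0.21) and -0.48 (SE 0.16, adjusted p = 0.00843, short of the size).

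Among the Ryk-type kinases a single paralog was called. *Drl-2* averaged 411 normalized counts in N-FACS, 13.0 in N-T0 and 3.18 in N-T3, a log2 fold change of -4.98 (SE 0.50, adjusted p = 3.16e-21) and -7.05 (SE 0.61, adjusted p = 3.06e-29). At T3 this was 0.757% of the N-FACS level, at an implied mean of about 3 normalized counts, where a fold change is imprecise. *drl*, the Wnt5 receptor of axons in the anterior commissure, averaged 1011 normalized counts in N-FACS, 1589 in N-T0 and 1359 in N-T3, and its log2 fold changes of 0.65 (SE 0.29, adjusted p = 0.0716) and 0.39 (SE 0.18, adjusted p = 0.0624) were not called. *dnt*, the third Ryk paralog, averaged 613 normalized counts in N-FACS, 524 in N-T0 and 452 in N-T3 and was not called either. At T3 the log2 fold change of *dnt*, -0.48 (SE 0.19, adjusted p = 0.0346), passed the adjusted p and missed the size of 0.5. The lower limits of *drl* and *dnt*, which were 0.08 and -0.69 at T0 and 0.04 and -0.86 at T3, lay above the upper limits of *Drl-2*, -3.99 at T0 and -5.85 at T3.

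*Eph*, the single fly Eph receptor kinase, was called lower at T3 (-0.63, SE 0.18, adjusted p = 0.00145) and averaged 4600 normalized counts in N-FACS, 3948 in N-T0 and 3051 in N-T3. Its ligand *Ephrin* was not called, with 2522 normalized counts in N-FACS, 2567 in N-T0 and 1992 in N-T3. The genes are near each other on chromosome 4, *Ephrin* at 571755 to 580122 and *Eph* at 610684 to 622470. The leucine-rich repeat proteins *trn* and *caps*, related proteins that act in the targeting of photoreceptor and olfactory neurons, also gave a single called gene. *trn* averaged 1674 normalized counts in N-FACS, 622 in N-T0 and 620 in N-T3 (log2 fold change -1.43, SE 0.21, adjusted p = 7.39e-11, and -1.47, SE 0.17, adjusted p = 1.98e-16). *caps* averaged 701 normalized counts in N-FACS, 694 in N-T0 and 613 in N-T3, with 95% limits of -0.63 to 0.60 and -0.67 to 0.22.

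The IRM comprises *kirre* and *rst*, which pair with *sns* and *hbs* across cell contacts in the optic lobe and the eye, in fusing myoblasts and in nephrocytes. *kirre* averaged 159 normalized counts in N-FACS, 14.3 in N-T0 and 8.38 in N-T3 (log2 fold change -3.48, SE 0.55, adjusted p = 6.09e-09, and -4.27, SE 0.46, adjusted p = 6.29e-19). *hbs* averaged 180 normalized counts in N-FACS, 27.0 in N-T0 and 13.2 in N-T3 (-2.73, SE 0.56, and -3.79, SE 0.46), and *sns* averaged 413 in N-FACS, 84.5 in N-T0 and 127 in N-T3 (-2.29, SE 0.39, and -1.74, SE 0.29). These 3 genes were called lower at both stages. Markers of the other cells that use these proteins were also detected, and their part in the IRM levels was not tested. The 8 muscle markers summed to 258 normalized counts in N-FACS, 166 in N-T0 and 131 in N-T3. Most of the N-FACS sum was *sls* and *bt*, both called lower at both stages. Of the 8, 2 were called higher and 2 lower at T0, and 1 higher and 2 lower at T3. Only 2 of the 8 had a base mean of 30 or more in either comparison. Of 4 nephrocyte markers listed, 3 were matched. They summed to 610 normalized counts in N-FACS, 680 in N-T0 and 691 in N-T3, nearly all of it *Cubn*.

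*rst* departed from the other IRM genes. It averaged 288 normalized counts in N-FACS, 392 in N-T0 and 167 in N-T3. In T0 against FACS its log2 fold change was 0.45 (SE 0.31, adjusted p = 0.277), not called, and in T3 against FACS it was called lower at -0.81 (SE 0.19, adjusted p = 6.86e-05). On chromosome X *rst* (2950399 to 2973834, minus strand) lies inside the span of *kirre* (2740384 to 3134532, plus strand), without shared exonic bases.

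Between the allograft stages few of these genes were called, and the limits of many were wide. In T3 against T0 a single gene, *rst*, was called lower, beside 1.02% of 9792 features tested, and 0 were called higher, beside 0.429%. The log2 fold change of *rst* was -1.25 (SE 0.30, 95% limits -1.84 to -0.66, adjusted p = 0.00609), at 42.0% of the N-T0 level. It did not pass the test of a change above 0.5 in size, by which 0 of the 39 genes and 0.204% of the features were lower. By unadjusted p under 0.05, 6 genes stood below N-T0 and 0 above it, and the share of all features was not computed. The 6 were *rst*, *tutl*, *Sema5c*, *robo3*, *Drl-2* and *NetB*. Of these *tutl* had the next smallest adjusted p, at 0.134, with a log2 fold change of -1.48 (SE 0.50). *robo3* at -1.71 (SE 0.79, adjusted p = 0.485) and *Drl-2* at -2.06 (SE 0.95, adjusted p = 0.475) compare group means that were already under 20 normalized counts in N-T0. The median of the 39 genes was -0.24, against 0.0054 over all features tested, and the median of the 8 neuronal markers was -0.92, with 0 of them called. In the same comparison 1 of 8 hemocyte and 2 of 6 fat body markers were called lower.

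**Figure D4:**
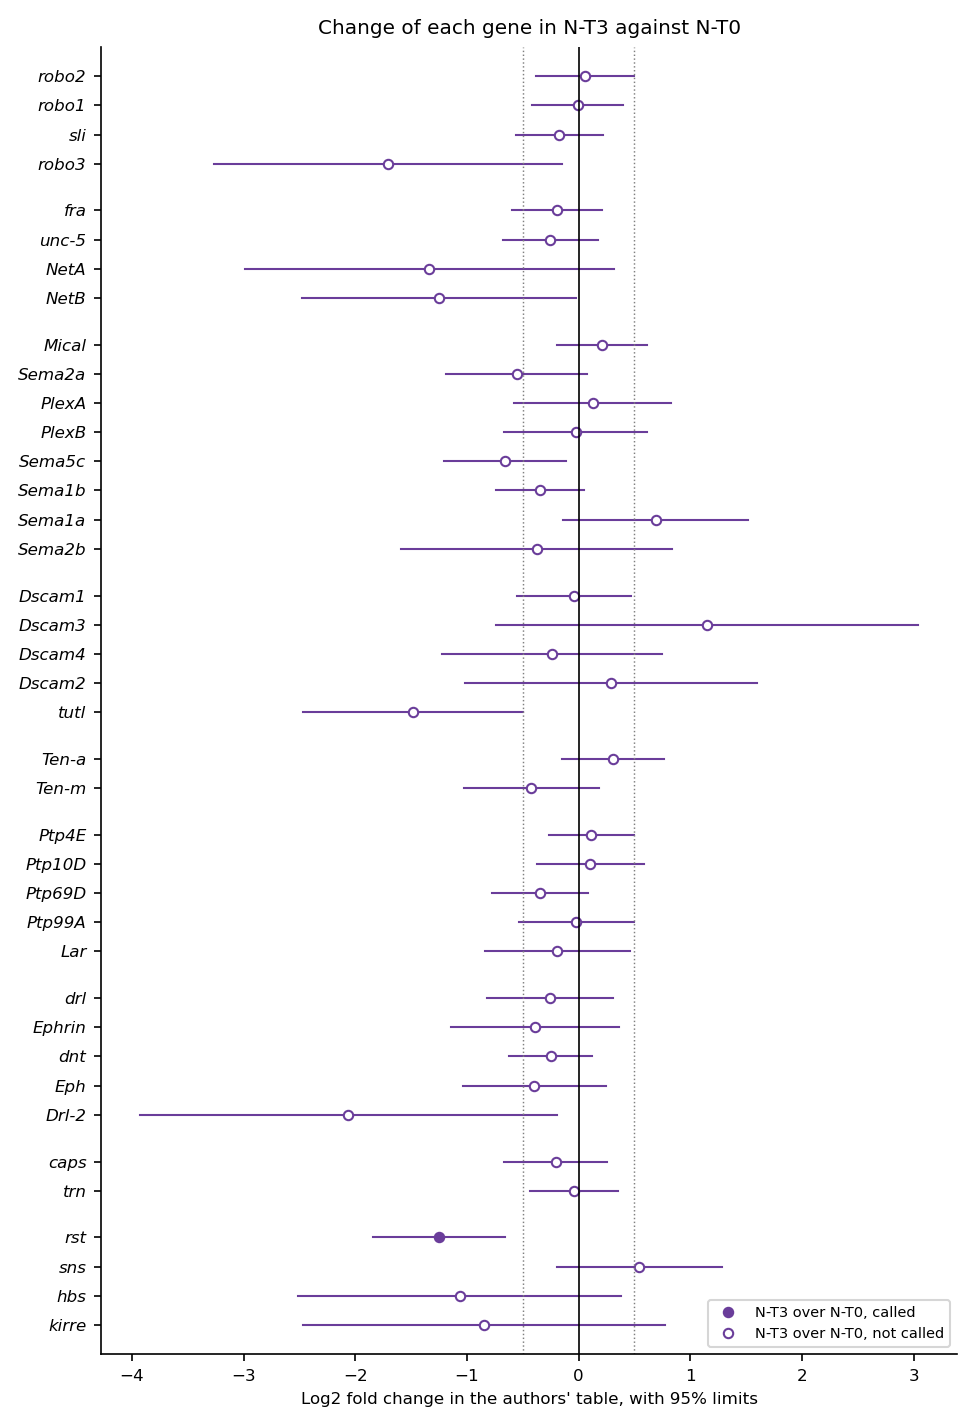
Log2 fold change of N-T3 over N-T0 (x axis) for each guidance gene (y axis, grouped by role), with 95% limits as bars and dotted lines at 0.5 in either direction. The single filled point, *rst* at -1.25, is the only gene called, and the bars are widest for genes with few counts in both stages, such as *Dscam3*, with limits from -0.74 to 3.04.

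How firmly a gene can be said to have kept its level depends on these limits. Of the 19 genes not called in T0 against FACS, 15 had 95% limits within 1 in either direction, and of the 17 not called in T3 against FACS all 17 did. Within the narrower range of 0.5 lay 1 and 3 of them. In T3 against T0 the limits of 20 of the 39 genes lay within 1, and for the other 19 a change of 2-fold was not excluded by the interval.

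Levels of different genes were compared per kilobase of exon. In N-FACS the 39 genes spanned 15.1 to 1126 normalized counts per kb, with a median of 157, against a median of 125 over 11385 features with a gene model. The highest were *Sema2a*, *Eph* and *fra* at 1126, 799 and 646 normalized counts per kb, and the lowest were *NetA*, *Lar* and *kirre* at 15.1, 17.2 and 20.2. The place of *Lar* is uncertain, since 83.6% of its exonic bases also belong to *CG46244* on the same strand. In N-T0 the order was led by *Sema2a* and *fra*, at 1504 and 902 normalized counts per kb, and in N-T3 by the same pair at 1041 and 804. *Dscam3* was the lowest gene in N-T0 at 0.938 normalized counts per kb, and *Drl-2* the lowest in N-T3 at 0.529. Neighbors in these orders cannot be told apart, since no error is given for a group mean.

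**Figure D5:**
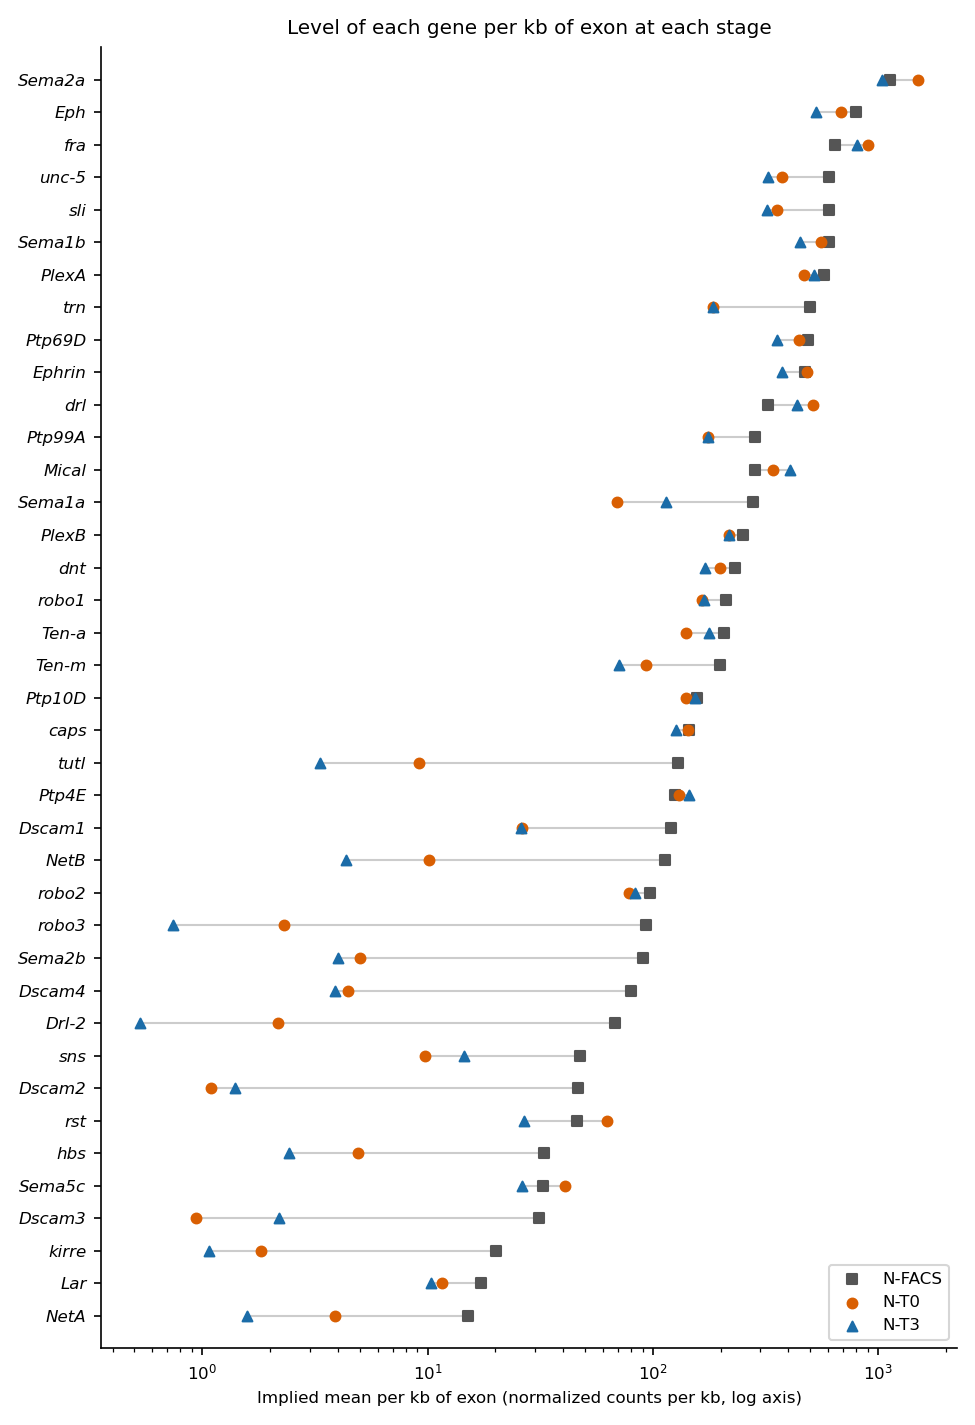
Implied mean per kilobase of exon (x axis, normalized counts per kb on a log axis) of each gene (y axis, sorted by its N-FACS level) in N-FACS (squares), N-T0 (circles) and N-T3 (triangles). In the upper part of the plot the 3 symbols of most genes lie close together, led by *Sema2a* at 1126 normalized counts per kb in N-FACS, and the long gray lines lie in the lower part, as for *robo3* and *Drl-2*.

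At a log2 fold change of -2 or less at both stages stood 11 genes: *robo3*, *NetB*, *Sema2b*, *Dscam1*, *Dscam2*, *Dscam3*, *Dscam4*, *tutl*, *Drl-2*, *kirre* and *hbs*. Their N-FACS levels ran from 20.2 to 130 normalized counts per kb with a median of 80.3, where the level of *Dscam1* is understated, since its alternative exons all count toward its exonic length. Their medians were 4.43 in N-T0 and 2.42 in N-T3. The 16 genes above -0.5 at both stages had a median of 268 normalized counts per kb in N-FACS, 280 in N-T0 and 287 in N-T3. These bands were cut on the changes themselves, so the allograft levels restate them and no test was made.

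The guidance genes are long. The median span of the 39 was 35.1 kb against 2.53 kb over 11385 features with a symbol, and their median exonic length was 7.05 kb against 1.94 kb. By chromosome arm 7 lie on 2L, 11 on 2R, 7 on 3L, 3 on 3R, 4 on chromosome 4 and 7 on X. The median span was 40.6 kb for the 11 genes at -2 or less at both stages. It was 17.7 kb for the 16 genes above -0.5 at both stages, and 55.1 kb for the 12 in neither band. Whether length and change are linked was not tested.

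Of 34 partners and effectors of guidance receptors, 33 were matched. In T0 against FACS 11 (33.3%) were called lower and 2 higher, beside 16.2% and 15.3% of all features tested. In T3 against FACS 13 (39.4%) were called lower and 2 higher, beside 18.2% and 17.2%. Their medians were -0.50 and -0.42. The 3 with the largest decrease at both stages were *comm* and *comm2*, of the Commissureless family in which Comm keeps Robo from the growth cone surface, and *dock*, an adaptor between guidance receptors and the actin machinery. *comm* averaged 221 normalized counts in N-FACS, 36.6 in N-T0 and 22.6 in N-T3, and its log2 fold change was -2.59 (SE 0.40) at T0 and -3.32 (SE 0.33) at T3. *comm2* stood at -2.15 (SE 0.52) and -3.39 (SE 0.54), and *dock* at -1.39 (SE 0.21) and -1.46 (SE 0.15). Those called higher at both stages were *conv*, a secreted leucine-rich repeat protein, at 1.62 (SE 0.31) and 1.41 (SE 0.19), and *dlp*, a heparan sulfate proteoglycan, at 1.20 (SE 0.30) and 1.07 (SE 0.13). In T3 against T0 a single partner was called, *blow*, which acts with the IRM in myoblast fusion. It averaged 403 normalized counts in N-T3 and 197 in N-T0 (log2 fold change 1.04, SE 0.27, adjusted p = 0.0166), and 0 partners were called lower, where 0.429% of all features tested were higher and 1.02% lower. By unadjusted p under 0.05, 0 partners stood below N-T0, and the share of all features was not computed.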

How the data were processed

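The study sequenced RNA of 9 libraries, 3 each of N-FACS, N-T0 and N-T3. Read quality was assessed by the authors with FastQC 0.11.9. The authors then mapped to BDGP6.32 (STAR 2.7.5), assigned reads to genes (featureCounts 2.0.1) and tested each pair of stages (DESeq2 1.30.1 under R 4.0.2). The 3 deposited tables give a base mean (a score, the mean count after division by size factors), a log2 fold change with its SE on the log2 scale, a Wald statistic (a score), and a p-value with and without Benjamini-Hochberg adjustment. These columns of the authors' own comparisons are the source of every value. The tables hold no values per library, so depth is unknown. The p-values set the difference between stages against an SE estimated from 3 libraries per stage. Each library pools brains or hosts, so the spread between single animals is not in them. In 2 of the tables each line carries an extra pair of quotes, removed before parsing.

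Group means were solved from base mean and log2 fold change with 3 libraries per group, those of N-FACS and N-T0 from T0 against FACS and that of N-T3 from T3 against FACS. The tables were scaled separately, and the same group's mean differed between the 2 tables that hold it by a median factor of 1.02 for N-FACS, 0.941 for N-T0 and 0.916 for N-T3 (7283 features). The 95% limits were taken from normal quantiles. A further Wald test of whether the absolute change exceeds 0.5 used the authors' estimates and SEs and was adjusted over the whole table. It was run on simulated estimates with normal noise of the size of the authors' SEs. That simulation takes the SEs as right, so it cannot show how the test behaves with 3 libraries per group. Python 3.11.15, numpy 2.4.6, pandas 2.3.3, scipy 1.17.1 and matplotlib 3.10.9 were used.

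Positions, exonic lengths and overlaps came from the Ensembl 115 annotation of BDGP6.54, which is not the authors' build, by gene identifier for 38 genes and by symbol for *hbs*. The text names every listed guidance gene, the 3 partners with the largest change in each direction among those called, every partner called in T3 against T0, and at most 2 markers per cell type. The genes and lists were chosen with earlier results of these data known. The alternatives were a minimum size of 1, a maximum adjusted p of 0.01, a minimum base mean of 30, the Wald test above, adjustment without independent filtering, centering on the median, features with a symbol only, group means under 3 set to 3, and group means from the other table.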

Additional observations from a re-analysis of the deposited data

Results flagged for a closer look

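*rst* differed between the allograft stages by the test of the difference itself. T3 against T0 gave a log2 fold change of -1.25 (SE 0.30, adjusted p = 0.00609 by the authors' DESeq2 Wald test), with implied means of 288 normalized counts in N-FACS, 392 in N-T0 and 167 in N-T3. Of the 39 guidance genes it was the only one called in that comparison. *kirre*, whose span holds *rst*, stood at -0.85 (SE 0.83, adjusted p = 0.999) in the same comparison. Under the test of a change above 0.5 in size *rst* was not called.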

How the results depend on the processing

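Of the alternatives run on single genes, only centering on the median alters a log2 fold change, by 0.0208 at most. No guidance gene changed sign under it. The other alternatives change the calls and leave the log2 fold change as it is, so they could not change a sign. The counts of guidance genes called lower against N-FACS stayed within 1.5 times under each of them. In T3 against T0 the count of 1 (*rst*) became 0 under the Wald test of a change above 0.5. A log2 fold change of at least 1 lost *sli*, *unc-5*, *Ptp99A* and *Ten-a* at T0 and *sli*, *unc-5*, *rst*, *Ptp99A*, *Eph* and *Lar* at T3. An adjusted p of at most 0.01 lost *Ptp99A* and *Ten-a* at T0 and *Lar* at T3. A base mean of at least 30 left out *NetA* at T3, for 21 genes called lower in place of 22.

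Partners called lower numbered 6 at T0 and 7 at T3 with a log2 fold change of at least 1, and 5 and 8 under the Wald test, in place of 11 and 13. Partners called higher at T0 numbered 1 in place of 2 under the Wald test. The 1 partner called higher in T3 against T0 (*blow*) became 0 under the Wald test and also with the adjusted p limit set to 0.01. The implied N-T3 mean of *Mical* was 6101 normalized counts from T3 against T0, in place of 6651 from T3 against FACS, and N-T3 means as a whole shifted by a median factor of 0.916 between these tables.

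No paired analysis was possible because the tables carry no values per library. For the same reason the omission of single replicates and edgeR's quasi-likelihood test were not run, and whether 1 library decides a value is unknown.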
